A study of Rattus norvegicus with 6 samples.

Results

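Glucocorticoid target genes are genes whose transcription is known to be raised by the glucocorticoid receptor. Across the cell classes of the rat nucleus accumbens, 10 of them were followed among the 25629 genes of the count tables: Zbtb16, Tsc22d3, Sgk1, Klf9, Pdk4, Ddit4, Errfi1, Cdkn1a, Gpd1 and Arrdc2. Each symbol matched 1 row of the tables, so all 10 members were found. The genes were chosen by symbol, as known glucocorticoid targets, with the naloxone-against-saline changes of these same libraries already known. Those changes are therefore given below as a description, and the share of all genes that passed the same threshold stands beside each count.

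Corticosterone, the main glucocorticoid of the rat, is released by the adrenal cortex in response to stress and crosses into the brain. It binds the glucocorticoid receptor, encoded by Nr3c1, in the cytoplasm, and at lower hormone levels the mineralocorticoid receptor, encoded by Nr3c2. The hormone-bound receptor moves to the nucleus and binds DNA at glucocorticoid response elements, where it raises or lowers transcription of nearby genes. Both neurons and glia express the receptor, and glial cells are a known site of its transcriptional action in the brain. Opioid withdrawal is a known activator of the stress axis that ends in glucocorticoid release.

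The libraries are single-nucleus RNA libraries from nucleus accumbens punches of Sprague-Dawley rats aged 90 to 120 days. All 12 rats (6 male and 6 female) had worked for heroin infusions, first under fixed ratio 1 (7 days) and then under fixed ratio 3 (4 days). A progressive-ratio test came on day 12 and more fixed ratio 3 sessions on days 13 and 14. After the final session the rats received saline or naloxone, an opioid receptor antagonist that precipitates withdrawal in opioid-dependent animals, and were killed 1 h later. Tissue of male and female rats was pooled, which gave 3 saline libraries (replicates 1 to 3) and 3 naloxone libraries (replicates 4 to 6). Every rat, controls included, had taken heroin, so the comparison is of naloxone with saline in heroin-experienced animals, and no drug-free or naloxone-only group was analysed here.

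The promoters of the 8 members found in the RefSeq promoter table (rat assembly GRCr8; Zbtb16 and Gpd1 had no entry) were read for the letters that the receptor and the basal machinery are known to bind. The windows of 3 are shown here, because Sgk1, Errfi1 and Ddit4 are the members whose change differed between classes by the largest margins below. Each line gives the 250 bases before an annotated transcription start, 5′ to 3′ on the gene's strand, and capitals mark TATA boxes (TATAAA) and GC boxes (GGGCGG or its complement CCGCCC). For Sgk1, which has 3 annotated starts, the window of the start nearest the gene's end is printed at chr1:24804832-24805081 on the minus strand. Errfi1 is at chr5:166606591-166606840 on the plus strand and Ddit4 at chr20:28437038-28437287 on the minus strand.
Sgk1: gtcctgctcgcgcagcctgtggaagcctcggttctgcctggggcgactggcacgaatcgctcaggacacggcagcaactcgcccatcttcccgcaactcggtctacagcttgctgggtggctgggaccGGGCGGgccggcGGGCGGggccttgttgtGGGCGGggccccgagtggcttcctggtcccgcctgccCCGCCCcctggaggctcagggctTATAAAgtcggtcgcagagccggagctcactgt
Errfi1: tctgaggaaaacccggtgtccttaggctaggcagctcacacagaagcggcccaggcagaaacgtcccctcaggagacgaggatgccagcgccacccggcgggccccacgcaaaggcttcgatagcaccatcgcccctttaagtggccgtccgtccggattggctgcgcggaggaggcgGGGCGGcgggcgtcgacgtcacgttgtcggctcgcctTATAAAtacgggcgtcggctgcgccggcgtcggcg
Ddit4: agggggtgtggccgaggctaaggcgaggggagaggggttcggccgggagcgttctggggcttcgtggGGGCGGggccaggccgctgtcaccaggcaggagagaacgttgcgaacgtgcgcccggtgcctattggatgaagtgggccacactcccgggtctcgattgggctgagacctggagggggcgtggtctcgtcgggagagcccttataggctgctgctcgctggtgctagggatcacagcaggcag
The search covered each 300-base window from 250 bases before to 50 bases after the start, on both strands. The whole glucocorticoid response element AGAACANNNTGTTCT was in 0 of the 12 windows of members, and in 5 of all 33469 windows (0.0149%). Its shorter core ACANNNTGT, which lies inside the whole element, was in 1 of 12 windows, an upstream start of Tsc22d3, against 6.86% of all windows. A TATA box was in 4 of 12 windows against 14.2% of all windows. In the printed windows of Sgk1 and Errfi1 it began 33 and 35 bases before the start. A GC box was in 7 of 12 windows against 33.1% of all windows. These are matches of letters, and receptor sites outside these windows were not searched.

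Of 64260 deposited barcodes, 58847 nuclei were kept, in 51 clusters, and 43517 of them lay in classes named from marker genes. The labels state 44592 nuclei. The 6 libraries held 55739350 to 76272798 unique molecular identifiers (UMIs, or captured transcripts), with a median of 4219 to 6450.5 UMIs per kept nucleus. Between libraries, 463 barcodes were shared. The naloxone 5 library had the highest median share of mitochondrial UMIs, 0.566% against 0.153% to 0.345% in the others. Tested classes ran from 280 cholinergic interneuron-like nuclei to 11591 oligodendrocyte-like nuclei, and in each of the 12 at least 3 of the class's own markers were raised. Levels are UMIs of a gene per 1000000 UMIs of its class in a library (CPM).

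The levels of the members by class are given over all 6 libraries, saline and naloxone together, so they include any change after naloxone. Clustering left the members out, and the level of a member between classes was not used to list it. The classes set side by side below were picked from these same means, so their order is a description and has no p. Tsc22d3, Pdk4, Errfi1, Gpd1 and Arrdc2 were highest of the 12 classes in oligodendrocyte-like nuclei, the cells that make myelin, in 6 of 6 libraries. Zbtb16 was highest there in 5 of 6.

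Gpd1, the cytosolic glycerol-3-phosphate dehydrogenase that links glycolysis to lipid synthesis, had the clearest oligodendrocyte pattern together with Arrdc2 and Tsc22d3. Its level was 386 ± 289 CPM (SD, n = 6) in oligodendrocyte-like nuclei and 84.9 ± 110.4 in committed oligodendrocyte precursor-like nuclei, a ratio of 4.54. In the remaining 10 classes its mean was at most 17.3 CPM. Arrdc2, an arrestin-domain protein, was at 79.4 ± 55.1 CPM in oligodendrocyte-like nuclei and at 14.4 ± 7.29 in the committed precursors, a ratio of 5.50. Tsc22d3, which encodes the anti-inflammatory protein GILZ, was at 446 ± 97.6 CPM in oligodendrocyte-like and 109.7 ± 49.9 in astrocyte-like nuclei. Neurons held little of it, with means of 2.57 to 6.68 CPM across the 6 neuron classes.

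Zbtb16, a zinc-finger transcription factor also called PLZF, was at 579 ± 386 CPM in oligodendrocyte-like and 329 ± 146 CPM in astrocyte-like nuclei. Astrocyte-like and endothelial-like nuclei (317 ± 161) did not separate, with astrocytes above in 3 of 6 libraries. In saline 3 the endothelial-like level (427 CPM) was above the oligodendrocyte-like one (337 CPM). Interneurons that were neither cholinergic nor somatostatin-positive stood out among neurons at 278 ± 58.2 CPM, while the 3 spiny projection neuron classes were at 4.09 to 20.4 CPM. Pdk4, the kinase that inhibits pyruvate dehydrogenase and so turns fuel use from glucose to fatty acids, was at 80.9 ± 40.4 CPM in oligodendrocyte-like and 47.1 ± 25.2 in astrocyte-like nuclei. No other class had a mean of Pdk4 above 3.96 CPM. Errfi1, an inhibitor of epidermal growth factor receptor signalling, was at 159 ± 106 CPM in oligodendrocyte-like nuclei and 88.8 ± 55.6 in oligodendrocyte precursor-like nuclei, next in order.

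Klf9, a Krüppel-like transcription factor, was the 1 member highest in astrocyte-like nuclei, at 145 ± 51.5 CPM against 111 ± 40.8 in oligodendrocyte-like nuclei. It was also present in spiny neurons, at 51.8 to 63.5 CPM. Sgk1, a kinase that acts on ion channels and transporters, had another order altogether. Drd2 spiny neuron-like nuclei held 235 ± 10.7 CPM and Drd1 spiny neuron-like nuclei 228 ± 16.8, which did not separate, with Drd2 above Drd1 in 3 of 6 libraries. This order depended on treatment. The Drd1 level was 310% to 397% of the oligodendrocyte-like level in the saline libraries. In naloxone 4, 5 and 6 it was 151%, 81.1% and 91.7% of that level. Astrocyte-like nuclei were lowest for Sgk1 at 10.7 ± 5.66 CPM. Ddit4, an inhibitor of the mTOR complex, was at 60.7 ± 16.5 CPM in endothelial-like and 50.5 ± 36.6 in oligodendrocyte-like nuclei, with endothelial-like nuclei above in 4 of 6 libraries. Cdkn1a, the cyclin-dependent kinase inhibitor p21, was low everywhere: 9.35 ± 7.60 CPM in endothelial-like nuclei, from 10 UMIs in all, and 8.50 ± 7.16 in oligodendrocyte-like nuclei.

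**Figure D1:**
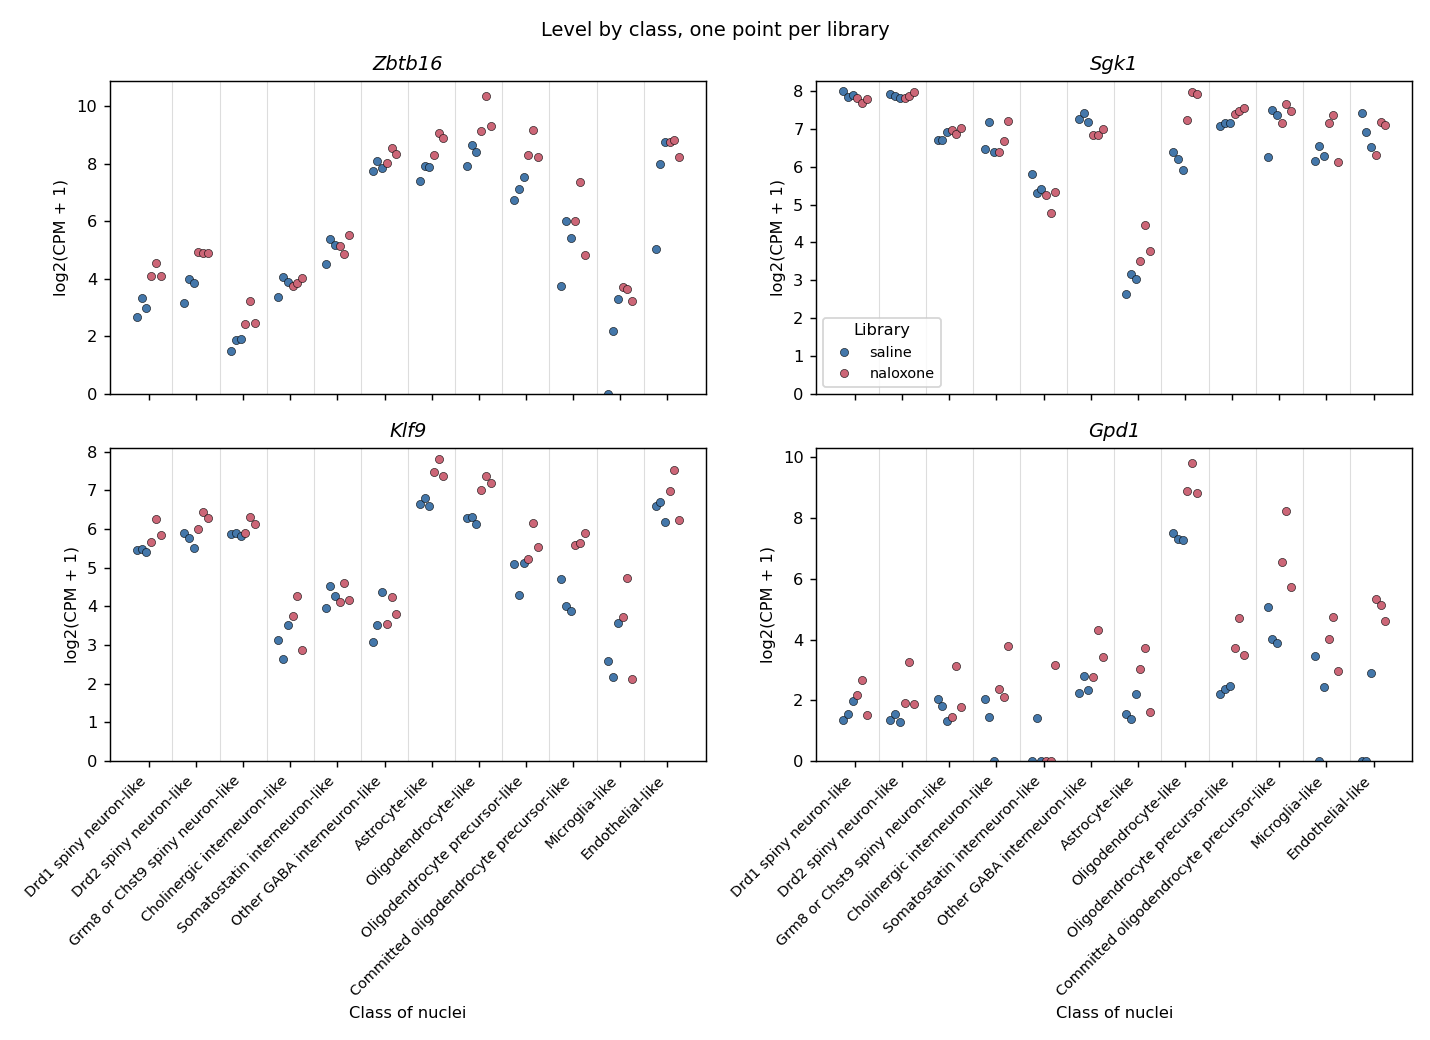
Levels of Zbtb16, Sgk1, Klf9 and Gpd1 in the 12 classes, as log2(CPM + 1), with 1 point per library coloured by treatment. Gpd1 was highest in oligodendrocyte-like nuclei in 6 of 6 libraries, whereas the mean of Sgk1 was highest in the Drd1 and Drd2 spiny neuron-like nuclei and lowest in astrocyte-like nuclei.

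In oligodendrocyte-like nuclei all 10 members were higher in each naloxone library than in each saline library, by 0.57 to 2.90 on the log2 scale. All 10 also passed an adjusted p under 0.05 in edgeR's quasi-likelihood test over all genes of the class. Because the members were listed with this contrast known, nothing is read from that count. Of the 11360 genes tested in the class, 0.651% passed as higher and 8.93% were higher in every naloxone library. The median change of the members was 1.44 on the log2 scale, beside -0.004 over all genes tested.

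Among the transcription factors and signalling regulators, Zbtb16 was at 239, 396 and 337 CPM in the saline libraries and at 565, 1309 and 630.1 CPM in the naloxone libraries. Naloxone 5 stood well above the others, and the groups did not overlap. The change was 1.34 on the log2 scale (SE 0.25). Klf9 was at 76.8, 79.2 and 69.0 CPM after saline and at 129, 165 and 145 CPM after naloxone, a change of 0.95 (SE 0.11). Its libraries lay close together within each group. Tsc22d3 went from 350.4, 367 and 353 CPM to 525, 534 and 545 CPM. This was the smallest change of the 10, 0.57 (SE 0.09), and it came with the smallest spread, an SD of 8.90 CPM after saline and 9.97 after naloxone.

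Sgk1 was at 82.2, 72.9 and 59.6 CPM in the saline libraries and at 149, 251 and 242 CPM in the naloxone libraries, a change of 1.58 (SE 0.19). Errfi1 was at 80.1, 83.0 and 78.0 CPM and then at 184, 349.9 and 181 CPM, a change of 1.54 (SE 0.20). For both genes the lowest naloxone library was above every saline library by more than 1.5 times. Ddit4 was at 17.7, 27.0 and 19.6 CPM after saline and at 55.9, 111 and 72.3 CPM after naloxone, a change of 1.85 (SE 0.22). Arrdc2 was at 46.4, 37.1 and 49.0 CPM and then at 81.2, 186 and 76.6 CPM, a change of 1.32 (SE 0.27), with naloxone 5 again apart. Cdkn1a had the fewest UMIs behind it: 4, 10 and 7 after saline, then 62, 35 and 57 after naloxone. That corresponds to 2.01 ± 0.83 CPM (SD, n = 3) and 14.98 ± 1.19 CPM (SD, n = 3), a change of 2.90 (SE 0.30). The filter on low counts used the libraries of both groups, so the testing of Cdkn1a was not independent of its naloxone values.

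The metabolic members were higher as well. Gpd1 was at 182, 158 and 155 CPM in the saline libraries and at 469, 896 and 453 CPM in the naloxone libraries, a change of 1.85 (SE 0.21). Pdk4 was at 63.3, 46.2 and 31.6 CPM after saline and at 107, 137 and 100.1 CPM after naloxone, a change of 1.30 (SE 0.20). Saline 1 was the highest saline library for Pdk4 and Sgk1 and the lowest for Zbtb16.

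**Figure D2:**
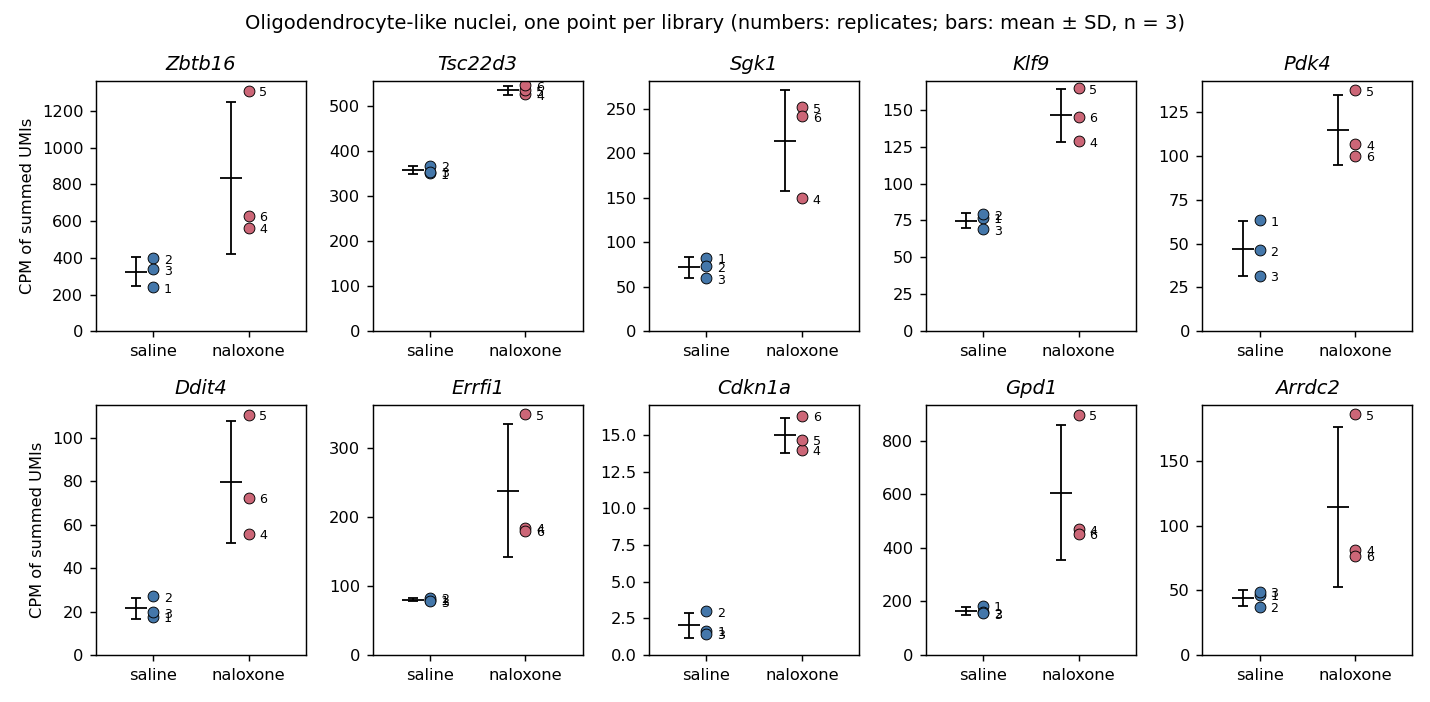
The 10 members in oligodendrocyte-like nuclei, in CPM on linear axes that start at 0, with 1 numbered point per library and bars for mean ± SD (n = 3). The 3 naloxone libraries lie above the 3 saline libraries for each member, and naloxone 5 is the highest for every member except Tsc22d3 and Cdkn1a.

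One library bore on the size of some of these values. Naloxone 5 was the highest library for every member except Tsc22d3 and Cdkn1a. Without naloxone 5, the change was 0.90 for Zbtb16, 0.85 for Arrdc2, 1.20 for Errfi1 and 1.5 for Gpd1, and all 10 members still passed. Leaving out a saline library ended the call for Zbtb16 and Arrdc2 each time, with adjusted p of 0.153, 0.0523 and 0.142 for Zbtb16 and of 0.143, 0.135 and 0.164 for Arrdc2 without saline 1, 2 and 3. Tsc22d3 also lost its call without saline 1, 2 or 3 or naloxone 6 (adjusted p 0.0914, 0.0523, 0.129 and 0.0522). With nuclei gated on markers in place of clusters, the change of Sgk1 was 0.69 and did not pass (adjusted p 0.0920), and neither did Tsc22d3 (0.0795) nor Arrdc2 (0.0644). DESeq2 did not pass Zbtb16 (adjusted p 0.0639) or Arrdc2 (0.0689) and gave Cdkn1a no adjusted p.

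The clusters that made up the oligodendrocyte-like class had other shares after naloxone than after saline. Cluster 0, led by Opalin, held 82.5% to 85.1% of the class in the saline libraries and 49.0%, 9.8% and 43.6% in naloxone 4, 5 and 6. Cluster 5, whose leading genes include Gpd1, held 1.3% to 3.6% in the saline libraries and 37.9%, 86.4% and 43.2% in the naloxone libraries. Cluster 0 was the largest of the class in 5 libraries and cluster 5 in naloxone 5. Cluster 15, led by Cyp2j10, held the rest. Within cluster 0, to which naloxone 5 gave 168 nuclei, the groups overlapped for some members. Zbtb16 there was at 238, 402 and 337 CPM after saline and at 441, 955 and 302 CPM after naloxone, so naloxone 6 lay among the saline libraries. Pdk4 and Arrdc2 overlapped too, at 26.8 to 51.2 against 38.5 to 123 CPM and at 36.9 to 51.3 against 50.8 to 128 CPM. So did Cdkn1a, at 1.54 to 3.28 against 2.31 to 15.3 CPM. Sgk1 in cluster 0 did not overlap, at 82.9, 74.8 and 65.9 CPM and then 114, 219.6 and 149 CPM. Tsc22d3, Klf9, Ddit4, Errfi1 and Gpd1 were likewise higher in each naloxone library there. The share of all genes higher in each naloxone library was not counted in cluster 0. In cluster 5, with 18, 57 and 80 saline nuclei, Zbtb16 was at 366, 566 and 735 CPM after saline. After naloxone it was at 734, 1350 and 918 CPM there, so the groups overlapped. Arrdc2 overlapped in cluster 5 too, at 63.2 to 146 against 103 to 193 CPM, and the other members did not. In cluster 15 Zbtb16 was at 238, 345 and 261 CPM after saline and at 510.4, 1199 and 586 CPM after naloxone, which did not overlap. In bulk sums of nuclei, more nuclei of one state and more transcript per nucleus cannot be told apart.

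The share of oligodendrocyte-like nuclei with at least 1 UMI of a member moved the same way. For Zbtb16 it was 33.8 ± 5.36% after saline and 61.5 ± 11.5% after naloxone, and for Gpd1 22.6 ± 3.59% and 49.6 ± 6.17% (SD, n = 3). With each nucleus thinned to 1000 UMIs, which left out 16.25% of the class, the shares were 24.6 ± 4.55% and 49.3 ± 16.8% for Zbtb16. For Gpd1 they were 14.2 ± 1.26% and 38.7 ± 10.8%, against 0.170% and 0.451% in equally thinned Drd1 spiny neuron-like nuclei. For Cdkn1a the thinned share was 0.148 ± 0.0903% and 1.5 ± 0.237%.

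Markers of the class itself and of other classes were summed within oligodendrocyte-like nuclei. The 8 oligodendrocyte markers summed to 14223 to 15277 CPM in the saline libraries and to 15750 to 16803 CPM in the naloxone libraries, which did not overlap. Sums of astrocyte markers (303 to 467 against 391 to 433 CPM) and of microglia markers (80.1 to 117 against 116 to 184 CPM) overlapped between the groups. Sums of committed precursor markers (2287 to 2330 against 2416 to 2678 CPM) and of somatostatin interneuron markers (19.9 to 21.6 against 33.4 to 40.1 CPM) were higher in each naloxone library. The part of these marker levels in the members' values was not tested.

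In astrocyte-like nuclei, 7 of the 10 members had enough UMIs to be tested and 5 of the 7 passed as higher after naloxone, where 0.728% of 10984 genes passed in that direction and 6.37% were higher in every naloxone library. Zbtb16 was at 168, 244 and 233 CPM in the saline libraries and at 314, 535 and 477 CPM in the naloxone libraries, a change of 1.06 (SE 0.17). Errfi1 was at 22.7, 22.5 and 28.9 CPM and then at 49.2, 118 and 56.1 CPM, a change of 1.6 (SE 0.27). Pdk4 was at 25.3, 24.9 and 30.3 CPM and then at 63.7, 87.4 and 51.2 CPM, a change of 1.34 (SE 0.19). In oligodendrocyte-like nuclei the same 3 genes changed by 1.34, 1.54 and 1.30, and in neither class did their groups overlap.

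Klf9 in astrocyte-like nuclei was at 99.7, 109.9 and 95.3 CPM after saline and at 177, 223 and 165 CPM after naloxone, a change of 0.92 (SE 0.11). Tsc22d3 was at 51.8, 86.2 and 89.9 CPM and then at 115, 199.7 and 115 CPM, a change of 0.91 (SE 0.20). The call of Tsc22d3 was lost when any of the 6 libraries was left out, with adjusted p of 0.0527 to 0.216. Errfi1 lost its call without saline 1, 2 or 3 (adjusted p 0.0608, 0.0707 and 0.0509). Sgk1 did not pass, at 5.18, 8.02 and 7.23 CPM after saline and 10.4, 21.0 and 12.6 CPM after naloxone. Ddit4 did not pass and its libraries overlapped, at 35.3 to 44.7 CPM and 41.4 to 58.6 CPM.

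In astrocyte-like nuclei 3 members were near the floor. Cdkn1a had 0 UMIs in each saline library, then 2, 2 and 6 UMIs after naloxone. Gpd1 was at 1.6 to 3.61 CPM after saline and 2.03 to 12.2 CPM after naloxone, and Arrdc2 at 1.35 to 6.48 and 0.812 to 7.74 CPM. The levels of Gpd1 in astrocyte-like nuclei were 0.45% to 2.34% of those in oligodendrocyte-like nuclei of the same library. The 8 oligodendrocyte markers, which astrocytes lack, stood at 2.90% to 4.39% by the same measure. The part of RNA from other nuclei in the Gpd1 level was not tested. The 8 astrocyte markers within the class summed to 11212 to 11633 CPM in the saline libraries and to 12724 to 13218 CPM in the naloxone libraries. Marker sums of 4 other classes were also higher there in each naloxone library: microglia (72.5 to 85.0 against 88.5 to 122 CPM), Drd2 spiny neurons (659 to 697 against 709 to 772), somatostatin interneurons (11.3 to 18.5 against 19.9 to 22.3) and glutamatergic neurons (1.30 to 3.61 against 5.53 to 7.31). Their part in the members' values was not tested.

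**Figure D3:**
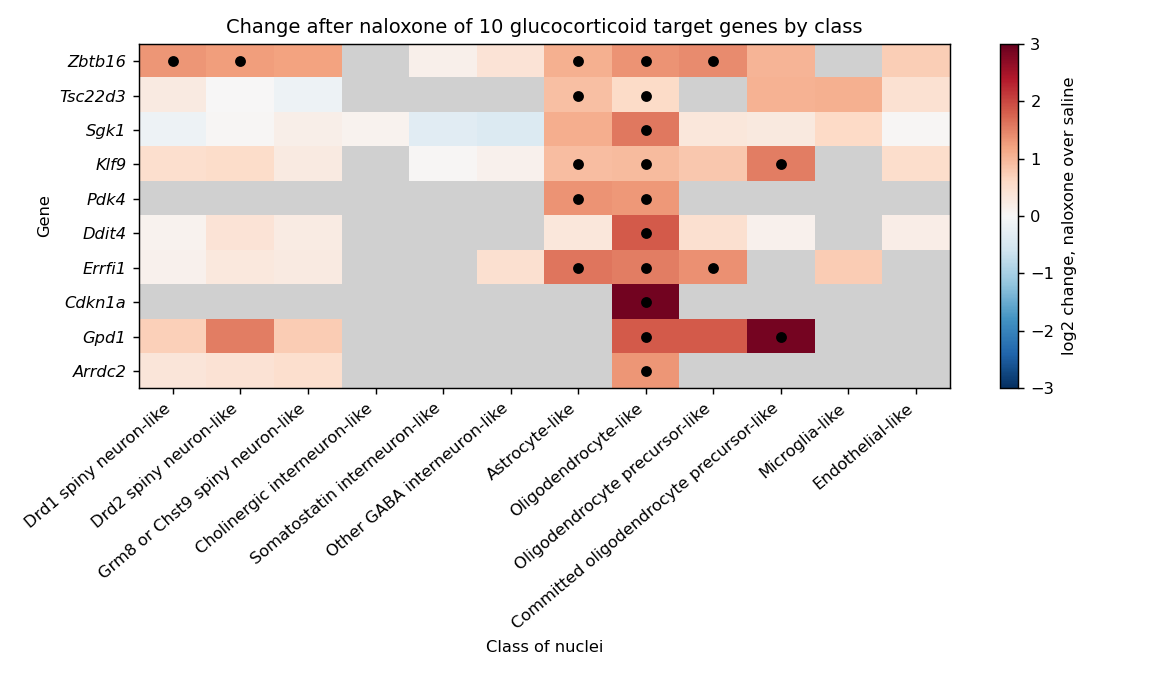
Naloxone-minus-saline change of each of the 10 members (rows) in each of the 12 classes (columns), as a colour on the log2 scale, with a dot where the adjusted p was under 0.05 and grey where the gene was filtered out. All 10 members have a dot in oligodendrocyte-like nuclei, 5 in astrocyte-like nuclei and 1 in each of the Drd1 and Drd2 spiny neuron-like classes.

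In oligodendrocyte precursor-like nuclei, the progenitors of the lineage, 2 of 6 tested members passed, where 0.254% of 9454 genes passed as higher and 6.15% were higher in every naloxone library. Zbtb16 was at 106, 138 and 187 CPM after saline and at 315, 576 and 298 CPM after naloxone, a change of 1.42 (SE 0.18). Errfi1 was at 58.7, 48.0 and 41.4 CPM and then at 96.2, 191 and 96.9 CPM, a change of 1.37 (SE 0.21). Without saline 3 the adjusted p of Errfi1 was 0.0637. Sgk1 differed by 0.35 (SE 0.11), which did not pass, from 133, 141 and 142 CPM to 166, 177 and 186 CPM. Gpd1 was at 3.67 to 4.52 CPM after saline and 10.1 to 25.0 CPM after naloxone, which did not pass. In this class Gpd1 was at 2.01% to 2.92% of the oligodendrocyte-like level, and the 8 oligodendrocyte markers at 1.65% to 3.69%. Marker sums of committed precursors (2444 to 2650 against 2702 to 2984 CPM), microglia (36.7 to 71.58 against 71.59 to 109.7) and other GABA interneurons (23.2 to 29.5 against 35.9 to 42.3) were higher in each naloxone library, and their part was not tested.

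In committed oligodendrocyte precursor-like nuclei, the step between precursor and myelinating cell, Klf9 and Gpd1 passed out of 6 members tested, where 0.357% of 6165 genes passed as higher. Most of the 175 genes that passed in this class were lower after naloxone, 153 against 22 higher. Klf9 was at 25.2, 15.2 and 13.9 CPM after saline and at 46.7, 48.5 and 58.8 CPM after naloxone, a change of 1.54 (SE 0.35). Gpd1 was at 32.7, 15.2 and 13.9 CPM and then at 93.4, 302 and 51.9 CPM, a change of 2.86 (SE 0.60). Both genes were low after saline. The filter on low counts used the libraries of both groups, so their being tested was not independent of their naloxone values. Leaving out any 1 library ended the call of Klf9 (adjusted p 0.0785 to 0.146), and leaving out saline 1, 2 or 3 or naloxone 4 or 5 ended that of Gpd1 (0.0575 to 0.0983). Markers of spiny neurons within this class summed to 910 to 2288 CPM in the saline libraries and 187 to 455 CPM in the naloxone libraries, and astrocyte markers to 319 to 516 and 104 to 164 CPM. The part of these in the result was not tested. With called doublets kept, neither gene passed (adjusted p 0.429 for Klf9 and 0.402 for Gpd1).

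The Drd1 and Drd2 spiny neuron-like classes carry the D1 and D2 dopamine receptors and make up most accumbens neurons. Among the neuron classes tested, Zbtb16 was the 1 member that passed, in both of these. In Drd1 nuclei it was at 5.36, 9.16 and 6.97 CPM after saline and at 16.1, 22.3 and 16.0 CPM after naloxone, a change of 1.32 (SE 0.18), where 0.14% of 13582 genes passed as higher. Without saline 1, 2 or 3 or naloxone 4 the adjusted p was 0.118, 0.0627, 0.0976 or 0.0520. In Drd2 nuclei it was at 7.88, 14.8 and 13.3 CPM and then at 29.6, 28.4 and 28.6 CPM, a change of 1.26 (SE 0.17), where 0.564% of 12588 genes passed. This call held without each of the 6 libraries in turn.

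Because oligodendrocyte-like nuclei hold far more Zbtb16, its neuronal level was set beside that of oligodendrocyte markers. Zbtb16 in Drd1 nuclei stood at 1.70% to 2.85% of its oligodendrocyte-like level in the same library, and in Drd2 nuclei at 2.17% to 5.24%. The 8 oligodendrocyte markers stood at 0.766% to 1.20% in Drd1 and at 0.79% to 1.31% in Drd2 nuclei. In Grm8 or Chst9 spiny neuron-like nuclei the order was the other way, with Zbtb16 at 0.63% to 0.83% and the markers at 1.20% to 1.91%. There Zbtb16 went from 1.82, 2.68 and 2.79 CPM to 4.43, 8.26 and 4.55 CPM and did not pass, where 0.0156% of 12789 genes passed as higher. The part of free RNA in these changes was not tested.

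The other members tested in spiny neurons did not pass. Klf9 was at 41.7 to 44.1 CPM after saline and 50.2 to 75.0 CPM after naloxone in Drd1 nuclei, a difference of 0.49 (SE 0.11). In Drd2 nuclei it was at 44.2 to 58.3 against 62.7 to 85.2 CPM, 0.55 (SE 0.12). The share of all genes higher in each naloxone library was not counted in these classes, so nothing is read from the separation of the groups. Sgk1 in Drd1 nuclei was at 255, 228 and 237 CPM after saline and at 225, 204 and 221 CPM after naloxone. Its difference was -0.15 (SE 0.08) in Drd1 nuclei and 0.04 (SE 0.08) in Drd2 nuclei. Tsc22d3, Pdk4 and Gpd1 in Drd1 nuclei stood at 0.60% to 0.94%, 0.07% to 0.73% and 0.41% to 1.88% of their oligodendrocyte-like levels, near the range of the oligodendrocyte markers.

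In the smaller classes no member passed. In microglia-like nuclei 3 members were tested, where 0.161% of 6216 genes passed as higher, and Tsc22d3 was at 44.7, 49.5 and 61.3 CPM after saline and 69.8, 151 and 113 CPM after naloxone, a difference of 1.07 (SE 0.29). Errfi1 and Sgk1 overlapped between the groups in that class. In endothelial-like nuclei 5 members were tested, where 0% of genes passed. The share of genes that passed as higher was 0% in cholinergic and somatostatin interneuron-like nuclei and 0.022% in the other GABA interneuron-like nuclei, in which 1, 3 and 4 members were tested. Summed over all nuclei, Cdkn1a was the 1 member of 10 that passed, at 0.475, 0.508 and 0.615 CPM after saline and 1.96, 1.76 and 1.81 CPM after naloxone, where 0.0288% of 17370 genes passed as higher. Its call over all nuclei was lost without saline 1, 2 or 3 or naloxone 4 or 6 (adjusted p 0.0652 to 0.242). Sgk1 over all nuclei was at 151 to 163 and 144 to 160.2 CPM, a difference of -0.03 (SE 0.07), so the oligodendrocyte change was not seen in the pooled sum.

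Passing in 1 class and not in another does not show that the change differed, so the difference itself was fitted with all 12 classes in 1 edgeR quasi-likelihood model, with the library as a block. Of 13521 genes, 2.51% had changes that differed among classes at an adjusted p under 0.05. Of the 10 members, 5 did: Errfi1 (adjusted p 3.21e-11), Sgk1 (1.82e-08), Ddit4 (4.32e-08), Klf9 (0.00829) and Zbtb16 (0.0475). Gpd1 (0.0611), Tsc22d3 (0.222), Arrdc2 (0.256), Cdkn1a (0.299) and Pdk4 (0.677) did not pass. This test uses the same treatment contrast with which the members were listed, so it describes where they changed and is not independent support. The Zbtb16 value was over 0.05 without saline 1, 2 or 3 or naloxone 4 or 5 (0.0894 to 0.320), with RLE scaling (0.0556) and with marker gating (0.844), and that of Klf9 without saline 1 or 2 or naloxone 4 (0.0540, 0.0956 and 0.146).

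Sgk1 and Ddit4 were the 2 members whose excess over the mean of the remaining classes passed in oligodendrocyte-like nuclei and in no other class. For Sgk1 the oligodendrocyte change exceeded that mean by 1.43 on the log2 scale (SE 0.16, adjusted p 3.74e-09), and for Ddit4 by 1.51 (SE 0.18, adjusted p 2.54e-08). In astrocyte-like nuclei the Sgk1 excess of 0.88 did not pass (SE 0.40), nor did the Ddit4 excess of 0.79 in microglia-like nuclei (SE 0.45). With marker gating the oligodendrocyte excess of Sgk1 was 0.59 (adjusted p 0.0114). Errfi1 changed more both in oligodendrocyte-like nuclei, by 0.95 (SE 0.14, adjusted p 2.41e-06), and in astrocyte-like nuclei, by 1.01 (SE 0.18, adjusted p 0.000702). In precursor-like nuclei its excess of 0.78 did not pass (adjusted p 0.0761). Of all genes, 0.451% changed more in oligodendrocyte-like and 0.237% in astrocyte-like nuclei. Without saline 1 the astrocyte excess of Errfi1 was 0.89 (adjusted p 0.0562).

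Confinement to 1 class was not shown for any member, since each class was set against the mean of the others and not against each of them. The oligodendrocyte change exceeded the mean of the other classes by 0.42 for Zbtb16 (adjusted p 0.58), 0.38 for Klf9 (0.40), 0.32 for Tsc22d3 (0.80) and 0.28 for Arrdc2 (1.00). Arrdc2 and Cdkn1a passed in oligodendrocyte-like nuclei alone, yet Arrdc2 had enough UMIs to be tested in only 4 classes and Cdkn1a in 1. Outside oligodendrocyte-like nuclei their class means were at most 14.4 CPM for Arrdc2 and 9.35 CPM for Cdkn1a. For Pdk4 and Cdkn1a, a class with 0 UMIs in a whole group left the contrast without a usable estimate. For Gpd1 the oligodendrocyte excess was 0.02. Its SE of 4.17 was derived, like every SE given here, from the estimate and the F statistic. With so small an estimate it is not a measure of spread. Those values show neither a difference nor its absence.

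**Figure D4:**
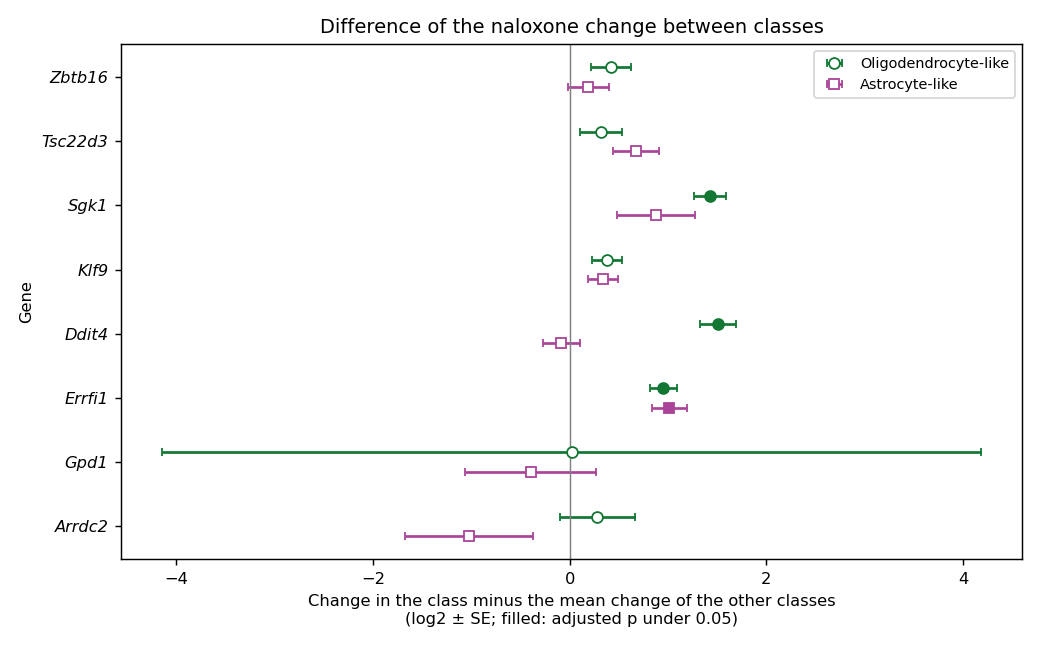
Naloxone change in oligodendrocyte-like and in astrocyte-like nuclei minus the mean change of the other classes, on the log2 scale, with bars of 1 SE and filled symbols where the adjusted p was under 0.05, for the 8 members with UMIs in both groups of every class. Sgk1 and Ddit4 lie furthest right for oligodendrocyte-like nuclei, at 1.43 and 1.51, and Errfi1 is above 0.9 in both classes. The oligodendrocyte bar of Gpd1 comes from a very small estimate and is not a measure of spread.

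Each library pooled male and female tissue, so male and female nuclei of 1 library come from different animals. Nuclei with Xist UMIs alone were called female and those with Y-linked UMIs alone male. Of the nuclei in named classes, 33.1% were called male and 40.2% female. Nuclei with both or neither were left out, so the values by sex rest on part of each class. In oligodendrocyte-like nuclei Zbtb16 was at 390.1, 580.2 and 749 CPM in male nuclei of the saline libraries and at 345, 1518 and 898 CPM in those of the naloxone libraries. In female nuclei it was at 79.3, 223 and 95.7 CPM and then at 741, 938 and 279 CPM. Male nuclei of naloxone 4 thus lay below each male saline value, while female nuclei of the same library lay above each female one. For Errfi1 in oligodendrocyte-like nuclei the male value of naloxone 4 lay within the saline range, with male values of 63.1, 115 and 99.3 CPM after saline and 81.1, 379 and 228 CPM after naloxone. Its female values were 80.7, 63.0 and 64.8 CPM and then 262, 326 and 97.4 CPM.

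Pdk4 in oligodendrocyte-like nuclei was at 80.9, 57.4 and 39.2 CPM in male saline nuclei and 35.7, 108 and 145 CPM in male naloxone nuclei. In female nuclei it was at 35.7, 31.1 and 28.2 CPM and then 168, 129 and 48.1 CPM. Astrocyte-like nuclei of the same libraries had a like pattern for Pdk4, with 28.9, 109 and 81.8 CPM in male naloxone nuclei and 91.0, 62.8 and 23.2 CPM in female naloxone nuclei, against 21.1 to 36.5 CPM in saline nuclei of either sex. In both classes the male nuclei of naloxone 4 and the female nuclei of naloxone 6 were the low ones among naloxone nuclei. The sex-by-treatment difference in oligodendrocyte-like nuclei (female change minus male change) was 1.76 for Zbtb16 (SE 0.55) and 1.57 for Sgk1 (SE 0.54), and both had an adjusted p of 1.00. No member passed for it in any class where it could be fitted, and in oligodendrocyte-like nuclei 0% of 9042 genes did.

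**Figure D5:**
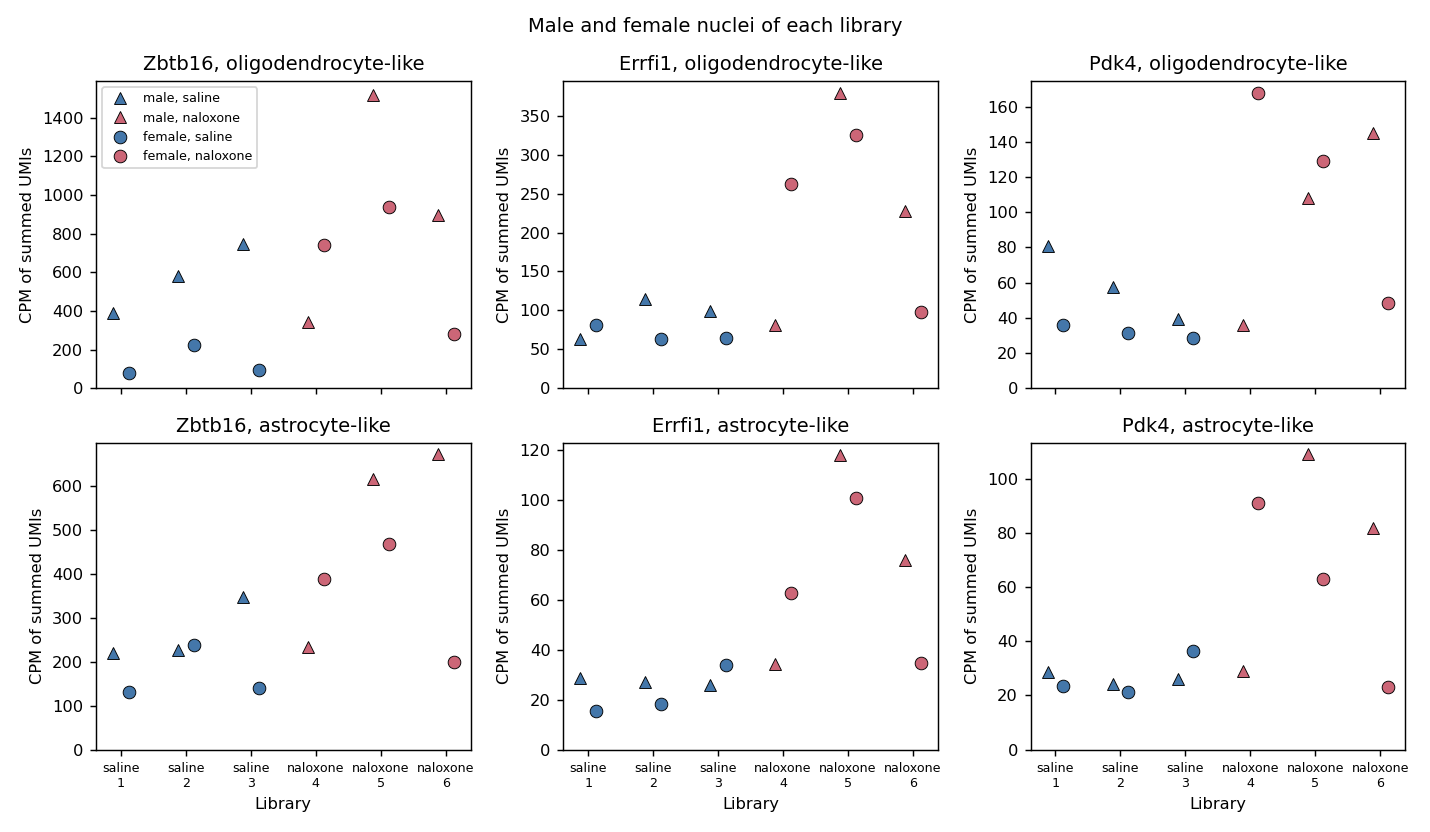
Zbtb16, Errfi1 and Pdk4 in male and female nuclei of oligodendrocyte-like and astrocyte-like classes, in CPM on linear axes that start at 0, with a triangle for male and a circle for female nuclei of each library. For Zbtb16 in oligodendrocyte-like nuclei, male nuclei of naloxone 4 lie below the male saline nuclei, at 345 CPM, while male nuclei of naloxone 5 are at 1518 CPM.

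Other genes known to be induced by glucocorticoids were followed as a list of 27, of which 24 were in the tables. In astrocyte-like nuclei 6 of 17 tested passed as higher (Hif3a, Bcl6, Gjb6, Fkbp5, Mertk and Nfkbia), in oligodendrocyte-like nuclei 4 of 13 (Plekhf1, Fkbp5, Azin1 and Tle3), in precursor-like nuclei 2 of 10 (Fkbp5 and Mertk) and in microglia-like nuclei 1 of 5 (Fkbp5). Over all genes tested, 0.728%, 0.651%, 0.254% and 0.161% passed as higher in these 4 classes. None of the list passed as lower, and none passed in the other 8 classes. The list median was 0.54 in astrocyte-like and 0.48 in oligodendrocyte-like nuclei, beside -0.001 and -0.004 over all genes tested. In the other classes it ran from -0.26 in cholinergic interneuron-like nuclei to 0.47 in microglia-like nuclei, with 0.09 in precursor-like nuclei. The cholinergic value rests on 2 tested genes and the microglia value on 5. The list, too, was written with earlier results of these data known.

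Fkbp5, the co-chaperone that holds the glucocorticoid receptor in its low-affinity state, changed in microglia-like nuclei, where no member passed. It was at 134, 145 and 129 CPM after saline and at 583, 909 and 521 CPM after naloxone in that class, a change of 2.31 (SE 0.21, adjusted p 2.42e-05). In astrocyte-like nuclei it was at 17.5, 19.3 and 23.5 CPM and then at 77.2, 269.9 and 93.8 CPM, a change of 2.86 (SE 0.39). Per1, a clock gene that glucocorticoids induce, did not pass in astrocyte-like nuclei, with 11.7 to 12.8 CPM after saline and 4.43 to 12.4 CPM after naloxone. Fam107a in endothelial-like nuclei and Glul in oligodendrocyte-like nuclei did not pass either, with differences of -0.75 and 0.50.

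The receptors did not pass in any class. Nr3c1 was at 574 ± 57.6 CPM in astrocyte-like and 542 ± 55.4 CPM in oligodendrocyte-like nuclei (SD, n = 6), above the 209 ± 25.6 CPM of Drd1 spiny neuron-like nuclei. In oligodendrocyte-like nuclei it was at 596, 557 and 591 CPM after saline and 519, 446 and 541 CPM after naloxone, a difference of -0.22 (adjusted p 0.52). Hsd11b1, the enzyme that regenerates active corticosterone, was at 97.7 ± 9.89 CPM in astrocyte-like nuclei and at most 22.8 CPM elsewhere. Some members also answer to other pathways, Cdkn1a to p53 and Ddit4 to ATF4 and hypoxia. Of 10 other p53 targets in the tables, 2 to 9 were tested per class (8 in oligodendrocyte-like nuclei) and 0 passed by edgeR. Of 13 ATF4 and hypoxia genes, 1 to 8 were tested per class (7 in oligodendrocyte-like nuclei) and 0 passed as higher. P4ha1, a collagen prolyl hydroxylase subunit, passed as lower in astrocyte-like (-0.64), oligodendrocyte-like (-1.15) and microglia-like nuclei (-0.70). The p53 list had a median change of 0.11 in oligodendrocyte-like and 0.13 in precursor-like nuclei. For the ATF4 and hypoxia list the medians were -0.22 and 0.11.

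The genes whose levels followed each member most closely over the 72 sums of class and library were picked by the highest Pearson correlation of log2(CPM + 1), among 11574 genes. The sums share libraries and depth, so the values are descriptions. Tsc22d3 was followed by Elf2 (0.92) and Car2 (0.91), Gpd1 by Cdc37l1 and Mog (both 0.86), and Arrdc2 by Cdc37l1 (0.81) and Aplp1 (0.80). Pdk4 was followed by St3gal4 and Efhd1 (both 0.88), Ddit4 by Tmed10 (0.85) and Tsc22d3 (0.84), and Errfi1 by Slc25a13 (0.80) and Ikzf2 (0.79). Zbtb16 was followed by Fermt2 (0.80) and Ranbp3l (0.78), Klf9 by Tef (0.82) and Insyn2a (0.79), Sgk1 by Arhgap20 (0.87) and Slc8a1 (0.76), and Cdkn1a by Bcl2l1 (0.69) and Ndrg1 (0.68).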

How the data were processed

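Nuclei were profiled with the 10x GEM-X 3' v4 chemistry, per the labels' protocols. The deposited values are UMI counts per gene and nucleus. Cell Ranger 9.0.1, Seurat 5.2.1, R 4.4.0 and the build mRatBN7.2 are named in the submitters' processing notes, and the annotation release and the counting of introns are not given in the sources used here. Nuclei under 500 genes or over 5% mitochondrial UMIs were dropped, and 2762 called doublets (4.48%) were removed. Clustering (scanpy 1.11.5, leidenalg 0.10.2, 3000 variable genes, 40 components, resolution 1) left out 84 genes, the members and sex-linked genes among them. A cluster took a class name where at least 3 of that class's markers were raised and no other class had more. Raised means in at least 10% of nuclei and at least 1.5 times the mean of the other clusters. Clusters with markers of several classes or with over 15% of nuclei holding both Xist and Y-linked UMIs were set aside as mixed. Border macrophages, dividing cells and clusters with too few raised markers stayed unnamed. The largest unnamed clusters, 12 and 13 (1601 and 1597 nuclei), had too few raised markers and median UMIs of 7431 and 8615. Any neurons in unnamed clusters lie outside the statements on neuron classes. CPM were computed from the deposited counts.

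Counts were summed by library and class, with at least 20 nuclei of a class in each library, and tested with edgeR 4.0.16 (quasi-likelihood F-test, TMM scaling, low counts filtered by filterByExpr, Benjamini-Hochberg over all genes tested, threshold 0.05). "Passed" means an adjusted p under 0.05 in that test. Each SE is the absolute log2 change or difference divided by the square root of its F statistic. The tests were tested on simulated data. The 12 rats were pooled into 6 libraries, so p-values measure the spread between 6 pooled libraries. Which rats share a library is not stated, so a value of 1 sex in a library may rest on few animals. The members, markers and gene lists were chosen with earlier results of these data known. Named genes are the 10 members, each listed gene that passed in a class, at most 3 further genes per list with the largest change among those with a mean of at least 10 CPM, and the 2 genes most like each member. Alternatives were DESeq2 1.42.0, RLE scaling, no filter on low counts, leaving out each library, Leiden resolution 0.5, doublets kept, at least 1000 genes per nucleus, gating on markers without clusters, and sums by sex with a term for sex. A planned exact permutation test of levels between classes gives no p here, since the classes were picked from the same means.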

Additional observations from a re-analysis of the deposited data

Results flagged for a closer look

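The naloxone change of 5 members differed among the 12 classes in the edgeR quasi-likelihood model with the library as a block. The adjusted p was 3.21e-11 for Errfi1, 1.82e-08 for Sgk1, 4.32e-08 for Ddit4, 0.00829 for Klf9 and 0.0475 for Zbtb16. That of Zbtb16 was over 0.05 under 7 of the other settings (up to 0.844) and that of Klf9 under 3 (up to 0.146). Against the mean of the other classes, the change in oligodendrocyte-like nuclei was larger by 1.43 on the log2 scale for Sgk1, by 1.51 for Ddit4 and by 0.95 for Errfi1. In astrocyte-like nuclei the change of Errfi1 was larger by 1.01. Each of these 4 excesses kept its sign without each of the 6 libraries in turn. Without saline 1 the astrocyte excess of Errfi1 had an adjusted p of 0.0562.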

How the results depend on the processing

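No paired analysis was possible because the replicate numbers 1 to 6 are each used once across the 2 groups. Counts below are of genes passed and, after it, members passed, in class order all nuclei, Drd1, Drd2, Grm8 or Chst9, astrocyte-like, oligodendrocyte-like, precursor-like, committed precursor-like and microglia-like, with main values of 6 and 1, 34 and 1, 101 and 1, 6 and 0, 104 and 5, 97 and 10, 29 and 2, 175 and 2, and 15 and 0. Cholinergic, somatostatin, other GABA and endothelial-like nuclei had 0, 1, 4 and 0 genes passed by edgeR and 0 members passed under every setting run.
DESeq2 passed 411 and 8 in all nuclei, 110 and 2 in Drd1, 179 and 2 in Drd2, 41 genes in Grm8 or Chst9, 173 and 7 in oligodendrocyte-like (Zbtb16 and Arrdc2 lost, Cdkn1a with no adjusted p), 4 members in astrocyte-like (Tsc22d3 lost, 0.188) and 0 genes in somatostatin nuclei, with 1 member each in precursor-like and committed precursor-like nuclei. Without the filter on low counts, which tests more genes, the values were 44 and 3, 275 and 2, 495 and 3, 306 and 1, 311 genes in astrocyte-like, 380 in oligodendrocyte-like, 70 and 4, 539 and 4, and 57 and 1, with 34, 24, 38 and 13 genes in the 4 small classes, and 1036 genes and 8 members for the difference among classes (339 and 5 otherwise). With doublets kept they were 14 and 3 in all nuclei, 19 genes in Drd1, 2 in other GABA, and 1 and 0 in committed precursor-like nuclei. With at least 1000 genes per nucleus they were 0 and 0 in all nuclei, 55 genes in Drd2, 3 in Grm8 or Chst9, 102 and 0 in committed precursor-like and 9 in microglia-like nuclei. Gating on markers gave 3 and 0 in Drd1, 37 genes in Drd2, 11 in Grm8 or Chst9, 23 and 3 in astrocyte-like, 61 in oligodendrocyte-like, 6 and 1 in precursor-like and 7 in microglia-like nuclei, and 79 genes for the difference among classes. Sums by sex gave 63 genes in all nuclei, 148 and 2 in Drd1, 2 members in Drd2, 16 genes in Grm8 or Chst9, 0 in somatostatin, 2 in other GABA and 8 in microglia-like nuclei.
Leaving out each library gave 0 to 266 genes and 0 to 4 members in all nuclei, 0 to 63 and 0 to 1 in Drd1, 21 to 154 and 1 to 2 in Drd2, 0 to 31 in Grm8 or Chst9, 0 to 4 in cholinergic, 0 to 10 in somatostatin, 0 to 4 in other GABA, 29 to 129 and 3 to 4 in astrocyte-like, 34 to 109 and 7 to 10 in oligodendrocyte-like, 5 to 47 and 1 to 3 in precursor-like, 31 to 293 and 0 to 1 in committed precursor-like, 2 to 34 in microglia-like nuclei, and 129 to 407 genes and 3 to 6 members for the difference among classes. The cause of these moves was not tested.
The Sgk1 level in Drd2 minus Drd1 nuclei was 7.00 CPM and turned to -0.0737 with doublets kept, -0.918 with at least 1000 genes and -2.55 with gating. The Cdkn1a level in endothelial-like minus oligodendrocyte-like nuclei was 0.849 CPM (-2.58 to 2.71 leaving out a library) and turned to -2.58 without saline 3 and -1.32 with at least 1000 genes. The Zbtb16 difference among classes was lost with RLE scaling (0.0556) and gating (0.844). Of 299 refits of a member's change in a class where it had passed, 240 kept the call, 59 lost it and 0 reversed. Members with few UMIs, Cdkn1a above all, are limited by depth. Not run for too few nuclei were at least 1000 genes in endothelial-like nuclei, gating in the cholinergic, somatostatin, other GABA, committed precursor-like and endothelial-like classes, and sums by sex in the cholinergic, committed precursor-like and endothelial-like classes. DESeq2 was not applied to differences among classes.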

Other observations

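Mural-like nuclei, the pericytes and smooth muscle cells of vessels, were too few to test (190 nuclei), yet Zbtb16 was abundant in them. After saline its level was 164, 219.8 and 389 CPM (from 4, 22 and 27 UMIs), and after naloxone 408, 819 and 1019 CPM (from 31, 32 and 41 UMIs). In 271 ependymal-like nuclei Zbtb16 was at 69.2, 42.8 and 22.0 CPM after saline and at 25.0, 292 and 19.7 CPM after naloxone, so naloxone 5 alone was high. Gpd1 in the same nuclei had 0, 1 and 1 UMIs after saline, then 1, 21 and 0 after naloxone. These classes have no test.

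Mixed clusters held 5718 nuclei. Some carried markers of more than 1 class, and others were set aside for their share of nuclei with both Xist and Y-linked UMIs, such as clusters 9 (1968 nuclei, 57.1%) and 19 (1078 nuclei, 56.2%). In the mixed nuclei Sgk1 was at 169 to 177 CPM after saline and 177 to 209.7 CPM after naloxone. In the 9612 nuclei of unnamed clusters Zbtb16 was at 31.2, 32.4 and 39.6 CPM after saline and at 48.4, 93.2 and 68.0 CPM after naloxone. Sgk1 there was at 80.3 to 87.5 and 81.2 to 85.6 CPM. No hypothesis was tested on these values.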
